A study of Rattus norvegicus with 40 samples.

Results

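The genes of the proteasome, the protease complex that degrades ubiquitin-tagged proteins, were followed in rat liver after oral GW7647. Members were all genes whose symbol in the platform annotation began with Psma, Psmb, Psmc, Psmd, Psme, Psmf or Psmg followed by a number, without Psmb8 and Psmb9. Each gene is given by its brightest probe set, judged by the mean of the 40 arrays. This gave 42 members of 13438 genes measured. Of the 42, 40 are proteasome subunits or factors that assemble or regulate the complex. The others are Psmc3ip, a meiotic recombination factor, and Psme3ip1, a protein that binds the activator Psme3. They were taken in by the start of their symbols and are not counted as part of the complex.

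GW7647 is a synthetic agonist of PPAR-alpha, the nuclear receptor that switches on fatty acid oxidation in the liver. Adult male Sprague Dawley rats were gavaged once a day over 4 days with vehicle, with 0.1 mg/kg, with 1 mg/kg or with 10 mg/kg of GW7647. The liver was collected 24 h later. Each of the 4 groups held 10 rats, with 1 array per rat, and whole liver RNA was measured, so that all its cell types contributed. The model is limited to males of 1 outbred stock, to 1 time and to RNA: neither protein nor proteasome activity was measured.

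The proteasome is built from a barrel, the 20S core, and a cap, the 19S regulatory particle. Alpha subunits (Psma genes) form the outer rings and the gate of the core, and beta subunits (Psmb genes) form the inner rings that hold the active sites. In the cap, ATPases (Psmc genes) unfold the substrate, and non-ATPase subunits (Psmd genes) bind and remove ubiquitin. In mammalian cells the transcription factor NFE2L1 raises many of these genes together when degradation falls short, while interferon gamma exchanges the standard active subunits for Psmb8, Psmb9 and Psmb10.

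Among the members were 14 subunits of the 20S core, 7 alpha and 7 beta, and 17 of the 19S particle, made up of 6 ATPases, 3 other subunits of the base and 8 of the lid. The rest were 3 chaperones that assemble the 19S base, 3 that assemble the 20S core, the activators Psme1 and Psme4, the inhibitor Psmf1 and the 2 genes outside the complex. Psmb6, Psme2, Psme3 and Psmg3 were measured only by probe sets shared with other genes and were not analysed here. The annotation also holds Psma3l, a gene named as a copy of Psma3, so the values of Psma3 are uncertain.

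Values are the authors' deposited log2 expression values. They were shifted between dose groups: the median over all probe sets averaged 2.47 with vehicle, 2.47 at 0.1, 2.60 at 1 and 2.71 at 10 mg/kg. The median log2 change over all 13438 genes was 0.26 at 10 mg/kg and 0.16 at 1 mg/kg against vehicle, and became -0.02 and -0.01 after quantile normalization of the 40 arrays. A gene therefore counted as changed only where limma's moderated test gave a Benjamini-Hochberg adjusted p under 0.05 in the same direction on both scales. Spiked poly-A control transcripts averaged 5.57 ± 0.37 with vehicle, 5.84 ± 0.28 at 0.1, 6.22 ± 0.73 at 1 and 6.56 ± 0.38 at 10 mg/kg (SD, n = 10 each) and so had the same order of groups as most members. The hybridisation controls averaged 9.34 with vehicle, 9.38 at 0.1, 9.51 at 1 and 9.58 at 10 mg/kg. The signal difference between the 3′ and 5′ probe sets of beta-actin, which is larger where RNA is less intact, averaged 2.78 ± 0.24 with vehicle, 2.85 ± 0.36 at 0.1, 3.11 ± 0.61 at 1 and 3.22 ± 0.41 at 10 mg/kg, in the same order again. Exactly equal values were shared by 0.0263% of probe sets between vehicle and 0.1 mg/kg arrays and by at most 0.00164% between other groups. Within groups the share was between 0.0224% and 0.0304%, so vehicle and 0.1 mg/kg arrays shared values about as often as arrays of 1 group. Whether the groups passed through normalization together is not stated. The 1 and 10 mg/kg groups, where members changed against vehicle, are those set apart by this measure. Separate runs and the dose cannot be told apart. The 6 PPAR-alpha target genes used to check the labels all rose at 1 and 10 mg/kg: Cyp4a1, for example, averaged 12.76 ± 0.06 at 10 mg/kg and 9.50 ± 0.27 with vehicle. Hepatocyte markers, 7 measured genes led by Alb, had mean levels between 12.1 and 12.3 at 10 mg/kg and between 12.3 and 12.4 with vehicle, and 3 of them fell at 10 mg/kg (Hnf4a by 0.46, Cps1 by 0.15 and Serpina1 by 0.14 on the log2 scale) while none rose.

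At 10 mg/kg, 29 of the 42 members rose and 2 fell against vehicle. Over all genes, 20.4% rose and 7.69% fell, and among 5810 genes with a group mean of at least log2 5, a set that holds 41 of the members, 26.2% rose and 9.41% fell. On the deposited values alone 35 members were higher and 2 lower (56.5% and 7.69% of all genes), and after quantile normalization alone 29 were higher and 4 lower (20.4% and 24.4%). The rises were spread over both particles: 12 of 14 genes of the 20S core and 13 of 17 of the 19S particle rose. All 3 chaperones of the 20S core and the inhibitor Psmf1 rose too. Neither activator rose, and none of the 3 chaperones of the 19S base did. The genes that fell were Psmb10, the interferon-induced active subunit, and Psmd10, a chaperone of the 19S base also known as gankyrin. The median log2 change of the 42 members was 0.68, a 1.61-fold level (0.39 after quantile normalization), against 0.26 over all genes (-0.02 after quantile normalization).

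The actin difference, a sign of RNA quality, and the level of the spiked poly-A controls both moved with the dose and were entered as covariates. With the actin difference, an alternative chosen after seeing the data, 31 members rose at 10 mg/kg and none passed as lower, while 20.1% of all genes rose and 6.76% fell. Psma3, Psmb10 and Psmd10 no longer passed under it, and Psma2, Psmd6 and Psmc3ip passed as higher. With the poly-A level, on quantile-normalized values alone, 28 members were higher and 4 lower (15.0% and 18.5% of all genes).

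**Figure D1:**
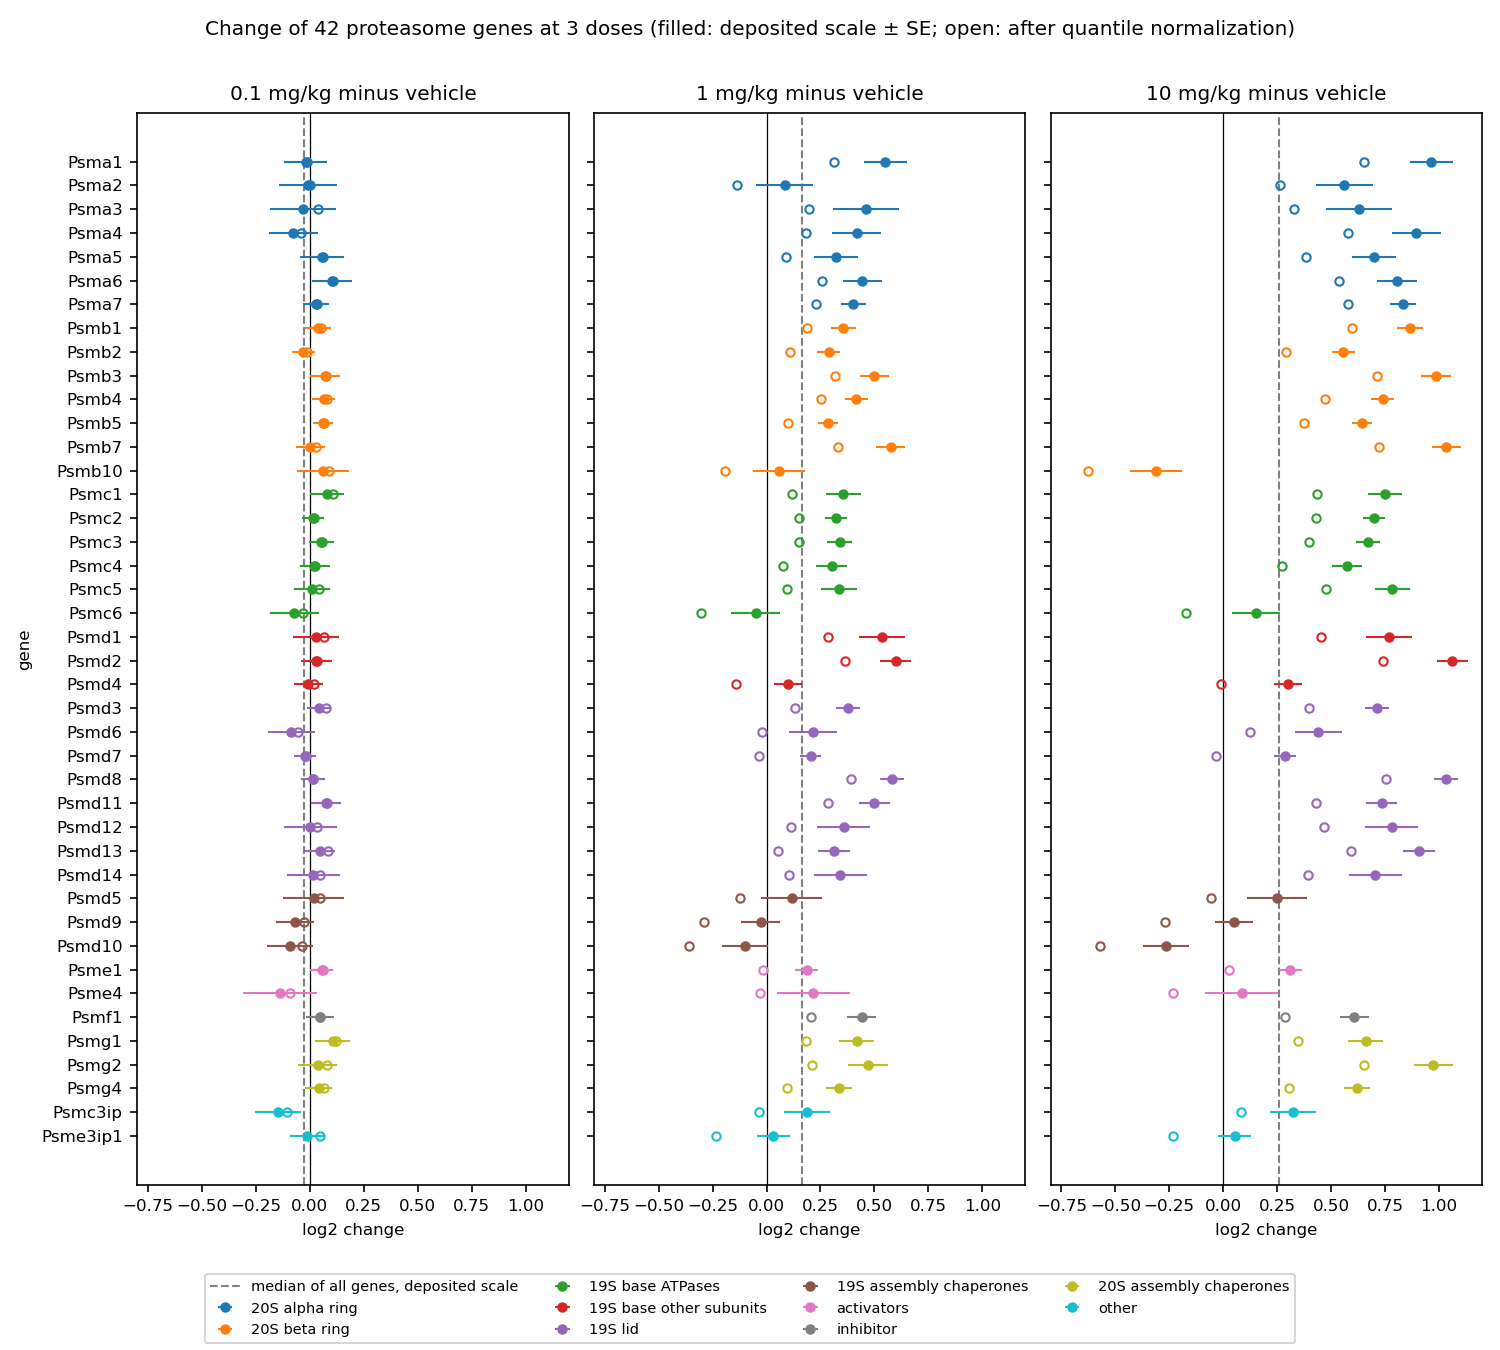
Log2 change against vehicle of each member, one panel per dose, with genes grouped by their place in the complex. Filled points are on the deposited scale and open points are after quantile normalization. Bars are standard errors of limma's fit and the dashed line is the median change of all genes. At 10 mg/kg most filled points lie to the right of the line, Psmd2 furthest at 1.06, while those of Psmb10 (-0.31) and Psmd10 (-0.27) lie left of 0. Open points of further members also lie left of 0 there, such as Psmd9 (-0.27) and Psme4 (-0.23). At 0.1 mg/kg the members lie around 0.

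In the alpha ring, which gates entry to the core, 6 of 7 genes rose at 10 mg/kg. Psma1 lay between 8.67 and 9.82 (median 9.30) at 10 mg/kg and between 8.09 and 8.54 (median 8.28) with vehicle. Every 10 mg/kg liver was above every vehicle liver. The rise was 1.95-fold (log2 change 0.96 ± 0.10, SE, adjusted p = 1.05e-10 by limma) and 0.65 on the log2 scale after quantile normalization. Psma4 lay between 7.96 and 8.93 (median 8.41) at 10 mg/kg and between 7.14 and 7.84 (median 7.39) with vehicle. Its groups did not overlap either, and the rise was 1.86-fold (0.90 ± 0.11, adjusted p = 1.3e-08, quantile-normalized 0.58). Psma7, Psma6, Psma5 and Psma3 rose by 0.83, 0.81, 0.70 and 0.63 on the log2 scale. Psma2 was the alpha subunit with the smallest change. It lay between 8.95 and 10.04 (median 9.76) at 10 mg/kg and between 8.80 and 9.39 (median 8.97) with vehicle, and the groups overlapped. Its log2 change of 0.56 ± 0.13 passed on the deposited scale (adjusted p = 0.000392) but was 0.26 after quantile normalization (adjusted p = 0.0962).

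The beta ring showed rises of its standard subunits and a fall of Psmb10. All 6 standard subunits measured, Psmb1 to Psmb5 and Psmb7, rose at 10 mg/kg, by 0.56 (Psmb2) to 1.03 (Psmb7) on the log2 scale. Psmb7, which carries the trypsin-like active site, lay between 8.05 and 8.63 (median 8.51) at 10 mg/kg and between 7.17 and 7.62 (median 7.35) with vehicle. The groups were fully apart. The rise was 2.05-fold (log2 change 1.03 ± 0.07, adjusted p = 5.21e-16, quantile-normalized 0.72). Psmb3, a structural subunit with no active site, lay between 10.28 and 10.75 (median 10.51) at 10 mg/kg and between 9.25 and 9.79 (median 9.55) with vehicle. It rose 1.98-fold (0.99 ± 0.07, adjusted p = 1.46e-15, quantile-normalized 0.71), and its 10 mg/kg livers were also all above those at 1 mg/kg. Psmb5, which carries the chymotrypsin-like site, averaged 10.47 ± 0.09 at 10 mg/kg and 9.83 ± 0.10 with vehicle (SD, n = 10 each) and rose 1.56-fold (adjusted p = 1.75e-14, quantile-normalized 0.38).

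Psmb10 takes the place of Psmb7 in the immunoproteasome, the form of the core made under interferon gamma and in immune cells. It lay between 6.59 and 7.54 (median 7.13) with vehicle, between 6.93 and 7.68 (median 7.12) at 0.1 mg/kg, between 6.85 and 7.59 (median 7.06) at 1 mg/kg and between 6.27 and 7.22 (median 6.76) at 10 mg/kg. The low livers were among those at 10 mg/kg, but the groups overlapped. The log2 change at 10 mg/kg against vehicle was -0.31 ± 0.12 (adjusted p = 0.0242) and -0.63 after quantile normalization (adjusted p = 7.03e-05). On the deposited scale it did not pass without vehicle array 9 (adjusted p = 0.058), without 10 mg/kg array 1 (0.0612) or without 10 mg/kg array 2 (0.0617), and with the actin difference as a covariate the change was -0.29 (adjusted p = 0.0543). Within an array, where a shift of the whole array cancels, the log2 signal of Psmb10 minus that of Psmb7 averaged -0.29 ± 0.24 with vehicle, -0.23 ± 0.22 at 0.1, -0.81 ± 0.31 at 1 and -1.64 ± 0.35 at 10 mg/kg (SD, n = 10 each). Only the movement of this difference between groups is meaningful, since signals of different probe sets are not comparable. It lay between -2.27 and -1.09 in the 10 mg/kg livers and between -0.75 and 0.05 in the vehicle livers, without overlap. How this shift divides between the 2 genes depended on the scale. On the deposited scale most of it was the rise of Psmb7 (1.03, against -0.31 for Psmb10). At 1 mg/kg Psmb10 itself had a log2 change of 0.06 there. After quantile normalization the changes at 10 mg/kg were 0.72 for Psmb7 and -0.63 for Psmb10. At 1 mg/kg Psmb10 had -0.19 on that scale (adjusted p = 0.283). The separation therefore describes the pair and not Psmb10 alone.

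The other interferon-induced active subunits, Psmb8 and Psmb9, are no members. Psmb8 averaged 8.06 ± 0.51 at 10 mg/kg and 8.82 ± 0.33 with vehicle (SD, n = 10 each), with a log2 change of -0.76 that passed (adjusted p = 6.1e-05, quantile-normalized -1.08). Psmb9 averaged 9.17 ± 0.27 at 10 mg/kg and 8.74 ± 0.35 with vehicle. Its change of 0.44 passed on the deposited scale (adjusted p = 0.00407) but was 0.13 after quantile normalization (adjusted p = 0.45). Of 9 measured Kupffer cell and macrophage markers, 8 fell at 10 mg/kg, among them Cd163 (log2 change -1.03) and C1qb (-0.96), where 7.69% of all genes fell. Their mean level lay between 6.04 and 7.16 at 10 mg/kg and between 6.84 and 7.65 with vehicle. Of 4 cholangiocyte markers 2 rose, Epcam (1.26) and Sox9 (0.45), and the lowest change in this list was -0.27. The cholangiocyte markers were dim, with mean levels between 3.19 and 3.99 at 10 mg/kg and between 3.04 and 3.51 with vehicle. Of 5 sinusoidal endothelial markers 1 fell and none rose, and of 7 stellate markers 1 rose and 1 fell. None of 6 T and B lymphocyte markers passed, and they were dim throughout, with mean levels between 2.15 and 2.47 at 10 mg/kg and between 2.08 and 2.42 with vehicle. In whole liver, fewer cells of a type and less RNA per cell cannot be told apart, and the part of these markers in the result for Psmb10 was not tested.

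**Figure D2:**
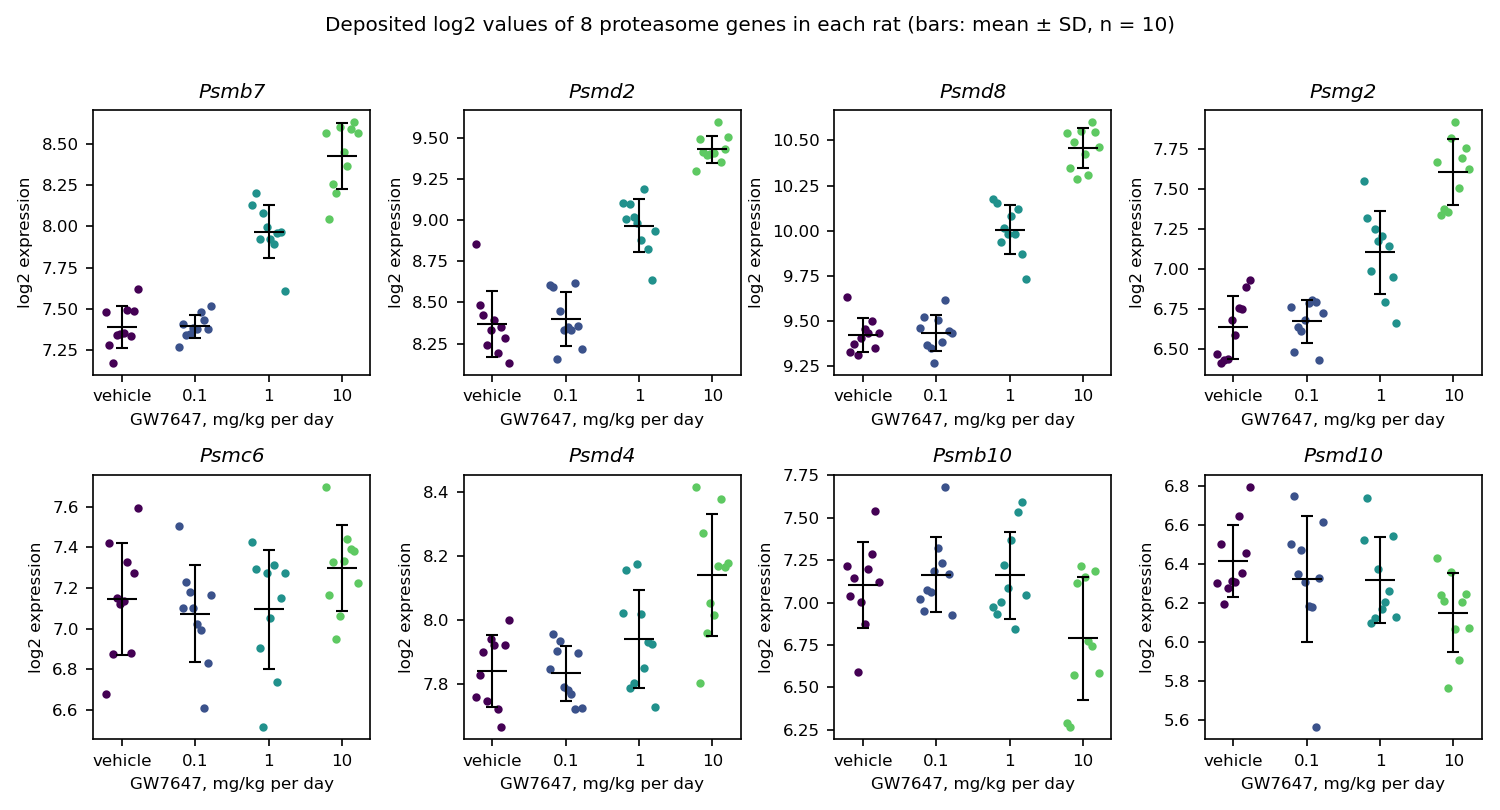
Deposited log2 values of 8 members, one point per rat, at vehicle and at each GW7647 dose in mg/kg per day, with the group mean and SD (n = 10). Psmb7, Psmd2, Psmd8 and Psmg2 at 10 mg/kg lie above all vehicle livers, Psmc6 and Psmd4 overlap with vehicle, and the 10 mg/kg groups of Psmb10 and Psmd10 have the lowest means.

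The 19S base holds the ring of ATPases that unfolds substrates, and 5 of its 6 genes rose at 10 mg/kg. Psmc5 lay between 7.80 and 8.51 (median 8.19) at 10 mg/kg and between 7.12 and 7.53 (median 7.39) with vehicle. The groups did not overlap, and the rise was 1.72-fold (log2 change 0.78 ± 0.08, adjusted p = 1.8e-10, quantile-normalized 0.48). Psmc1 lay between 8.15 and 8.67 (median 8.38) at 10 mg/kg and between 7.34 and 7.82 (median 7.62) with vehicle, also apart, and rose 1.68-fold (0.75 ± 0.08, adjusted p = 2.22e-10, quantile-normalized 0.44). Psmc2, Psmc3 and Psmc4 rose by 0.70, 0.67 and 0.57 on the log2 scale. Psmc6 was the ATPase that did not pass. It lay between 6.95 and 7.70 (median 7.33) at 10 mg/kg and between 6.68 and 7.59 (median 7.14) with vehicle, with a log2 change of 0.15 ± 0.11 (adjusted p = 0.234, quantile-normalized -0.17). The remaining probe sets of Psmc6 gave 0.48 (adjusted p = 0.00714) and 0.44 (adjusted p = 0.0287) on the deposited scale and 0.16 each after quantile normalization (adjusted p = 0.371 and 0.449), so that none of its 3 probe sets passed on both scales. Other probe sets were also present for 5 of the members that rose at 10 mg/kg, 8 in all, and 4 of these rose. Of the 2 with a mean of at least log2 5, that of Psmd11 rose (0.51, quantile-normalized 0.19) and that of Psmd14 did not pass (0.42, adjusted p = 0.111, quantile-normalized 0.11).

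Among the other subunits of the base, Psmd2 and Psmd1, the large scaffold subunits, rose. Psmd2, which also docks the shuttle proteins that deliver ubiquitinated substrates, lay between 9.30 and 9.60 (median 9.41) at 10 mg/kg and between 8.13 and 8.85 (median 8.34) with vehicle. Its 10 mg/kg livers were above every vehicle liver and every 1 mg/kg liver. The rise of 2.09-fold (log2 change 1.06 ± 0.07, adjusted p = 1.07e-15, quantile-normalized 0.74) was the largest of the 42 members on the deposited scale. Psmd1 lay between 7.10 and 8.14 (median 7.53) at 10 mg/kg and between 6.41 and 7.18 (median 6.79) with vehicle. Its groups overlapped slightly, and it rose 1.70-fold (0.77 ± 0.11, adjusted p = 8.98e-08, quantile-normalized 0.45). Psmd4, a ubiquitin receptor, lay between 7.80 and 8.42 (median 8.17) at 10 mg/kg and between 7.67 and 8.0 (median 7.86) with vehicle. Its log2 change of 0.30 ± 0.07 (adjusted p = 0.000157) was -0.01 after quantile normalization (adjusted p = 0.913), and it was not counted as changed.

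In the lid, which removes ubiquitin chains, 6 of 8 genes rose at 10 mg/kg. Psmd8 lay between 9.31 and 9.63 (median 9.42) with vehicle, between 9.27 and 9.62 (median 9.44) at 0.1 mg/kg, between 9.73 and 10.18 (median 10.0) at 1 mg/kg and between 10.29 and 10.60 (median 10.48) at 10 mg/kg. The vehicle, 1 mg/kg and 10 mg/kg livers did not overlap at all. At 10 mg/kg the rise was 2.05-fold (log2 change 1.03 ± 0.05, adjusted p = 4.28e-19, quantile-normalized 0.75). Psmd13 lay between 7.25 and 7.83 (median 7.62) at 10 mg/kg and between 6.44 and 6.90 (median 6.67) with vehicle, again apart, and rose 1.88-fold (0.91 ± 0.07, adjusted p = 1.76e-13, quantile-normalized 0.59). Psmd12, Psmd11, Psmd3 and Psmd14, of which Psmd14 is the deubiquitinating enzyme of the lid, rose by 0.78, 0.73, 0.71 and 0.71 on the log2 scale. Psmd7, the partner of Psmd14, lay between 8.54 and 8.78 (median 8.63) at 10 mg/kg and between 8.16 and 8.57 (median 8.33) with vehicle. Its log2 change of 0.29 ± 0.05 (adjusted p = 7.14e-06) was -0.03 after quantile normalization (adjusted p = 0.627). Psmd6 had 0.44 (adjusted p = 0.000693) and 0.13 (adjusted p = 0.336) on the deposited and quantile-normalized scales.

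The factors that build the 2 particles differed in their calls. The 20S chaperones Psmg1 and Psmg2, which form a pair that starts the alpha ring, and Psmg4 all rose at 10 mg/kg. Psmg2 lay between 7.34 and 7.92 (median 7.65) at 10 mg/kg and between 6.41 and 6.93 (median 6.63) with vehicle, and rose 1.96-fold (log2 change 0.97 ± 0.09, adjusted p = 7.54e-12, quantile-normalized 0.66). Psmg1 lay between 8.30 and 8.94 (median 8.69) at 10 mg/kg and between 7.81 and 8.27 (median 7.96) with vehicle, and rose 1.58-fold (0.66 ± 0.08, adjusted p = 7.02e-09, quantile-normalized 0.35). Psmg4 lay between 8.14 and 8.47 (median 8.34) at 10 mg/kg and between 7.53 and 7.92 (median 7.73) with vehicle, and rose 1.54-fold (0.62 ± 0.06, adjusted p = 3.21e-11, quantile-normalized 0.31). In all 3 the 10 mg/kg livers were above every vehicle liver.

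Of the chaperones of the 19S base, Psmd10 lay between 5.76 and 6.43 (median 6.21) at 10 mg/kg and between 6.20 and 6.80 (median 6.33) with vehicle. The groups overlapped, and the log2 change was -0.27 ± 0.11 (adjusted p = 0.0263), or -0.57 after quantile normalization (adjusted p = 7.17e-06). On the deposited scale Psmd10 did not pass without vehicle array 7 (adjusted p = 0.051) or 10 (0.0625), nor without 10 mg/kg array 4 (0.0624) or 7 (0.052), and with the actin difference as a covariate the change was -0.17 (adjusted p = 0.168). Psmd9 lay between 6.52 and 7.16 (median 6.79) at 10 mg/kg and between 6.43 and 7.14 (median 6.76) with vehicle. Its log2 change was 0.05 ± 0.09 on the deposited scale (adjusted p = 0.623) and -0.27 after quantile normalization (adjusted p = 0.0113). Psmd5 had a log2 change of 0.25 (adjusted p = 0.114, quantile-normalized -0.06). The difference in response between the 2 kinds of chaperone was not tested.

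The inhibitor Psmf1, which binds the core, lay between 8.98 and 9.43 (median 9.10) at 10 mg/kg and between 8.25 and 8.85 (median 8.52) with vehicle. The groups were apart, and it rose 1.52-fold (log2 change 0.61 ± 0.07, adjusted p = 5.18e-10, quantile-normalized 0.29). Psme4, an activator that caps the core in place of the 19S particle, lay between 6.73 and 7.89 (median 7.16) at 10 mg/kg and between 6.61 and 7.56 (median 7.15) with vehicle, largely overlapping. Its log2 change was 0.09 ± 0.17 (adjusted p = 0.672, quantile-normalized -0.23). Psme1, an interferon-induced activator, had 0.31 (adjusted p = 6.64e-06) on the deposited scale and 0.03 (adjusted p = 0.734) after quantile normalization. Neither gene outside the complex passed: Psme3ip1 lay between 5.44 and 6.06 (median 5.76) at 10 mg/kg and between 5.42 and 6.07 (median 5.71) with vehicle, and Psmc3ip was dim, at 3.87 ± 0.32 at 10 mg/kg and 3.55 ± 0.17 with vehicle (SD, n = 10 each).

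Across all members, every 10 mg/kg liver was above every vehicle liver for 23 of 42 genes, 10 in the core and 9 in the 19S particle. Over all genes, such a full separation upwards was found for 13.0%.

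At 1 mg/kg, 13 of the 42 members rose against vehicle and none fell, while 11.1% of all genes rose and 3.37% fell. They were Psma1, Psma6, Psma7, Psmb1, Psmb3, Psmb4 and Psmb7 of the core, Psmc2, Psmd1, Psmd2, Psmd8 and Psmd11 of the 19S particle, and Psmf1. All of them had also risen at 10 mg/kg, a comparison that shares the vehicle livers. The largest rises at 1 mg/kg were those of Psmd2 (1.51-fold, adjusted p = 2.07e-08, quantile-normalized log2 change 0.37), Psmd8 (log2 change 0.58, adjusted p = 6.91e-11, quantile-normalized 0.39) and Psmb7 (1.49-fold, adjusted p = 1.65e-08, quantile-normalized 0.33). Psmb7 lay between 7.61 and 8.20 (median 7.96) at 1 mg/kg, and Psmd2 between 8.64 and 9.19. Both overlapped slightly with vehicle, where they reached 7.62 and 8.85. All 1 mg/kg livers were above all vehicle livers for 6 members (Psmb4, Psmc2, Psmc3, Psmd3, Psmd8 and Psmd11), against 4.69% of all genes.

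The count at 1 mg/kg depended on the scale. On the deposited values alone 31 members were higher and none lower, against 38.2% and 3.37% of all genes. Of the 5810 genes with a group mean of at least log2 5, 2902 were higher and 131 lower there. On both scales 794 of these rose and 131 fell. After quantile normalization alone 13 members were higher and 4 lower (Psmc6, Psmd9, Psmd10 and Psme3ip1), against 11.1% and 12.1% of all genes. With arrays shifted to the hybridisation controls 6 were higher, against 7.89% of all genes. Poly-A control levels were between 5.25 and 5.70 on arrays 1 to 4 of the 1 mg/kg group and between 6.34 and 7.39 on arrays 5 to 10. With arrays 1 to 4 alone in that group, 10 members and 6.99% of all genes rose. With covariates for all arrays, 14 members rose and none fell with the actin difference (11.1% and 2.80% of all genes), and 15 were higher and 2 lower with the poly-A level on quantile-normalized values alone (8.24% and 8.94%). A further probe set of Psmd11, with a mean of 8.73, had a log2 change of 0.29 at 1 mg/kg (adjusted p = 0.00299) that was 0.05 after quantile normalization (adjusted p = 0.683).

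At 0.1 mg/kg no member rose or fell against vehicle by limma, on either scale, and none had an unadjusted p under 0.05. Over all genes 0.0819% rose and 0.00744% fell. Log2 changes of the 42 members lay between -0.15 and 0.11. Psmb7, for example, lay between 7.27 and 7.52 (median 7.38) at 0.1 mg/kg, and Psmd8 between 9.27 and 9.62 (median 9.44), close to the ranges of the vehicle livers. On the deposited scale, the group means of 37 of the 42 members had 10 mg/kg highest, then 1 mg/kg, then both lower groups. That scale was itself shifted. On it, 78.5% of all genes and 92.9% of members were above vehicle at 1 mg/kg, and 79.8% and 95.2% at 10 mg/kg. After quantile normalization these shares were 48.3% and 69% at 1 mg/kg, and 47.8% and 78.6% at 10 mg/kg. Among the 5810 genes with a group mean of at least log2 5, 85.2% were above vehicle at 1 and 78% at 10 mg/kg. After quantile normalization these were 50.4% and 50%. How many of all genes had the same order was not counted.

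Taking the doses in steps, 8 members rose at 1 mg/kg against 0.1 mg/kg and none fell (10.5% of all genes rose and 2.95% fell). They were Psma1, Psma7, Psmb3, Psmb4, Psmb7, Psmd2, Psmd8 and Psmd11. At 10 mg/kg against 1 mg/kg, 23 members rose and Psmb10 fell (8.55% of all genes rose and 5.98% fell), with 12 of 14 rising in the core and 9 of 17 in the 19S particle. Psmd13, a lid subunit, had the largest change of this step, at 1.51-fold (log2 change 0.59 ± 0.07, adjusted p = 8.74e-08, quantile-normalized 0.54). All 10 mg/kg livers were above all 1 mg/kg livers for 9 members, against 2.46% of all genes. The count of 24 fell to 11 rises when the 1 mg/kg group was cut to its arrays 1 to 4 (3.94% of all genes), and to 13 (12 higher, 1 lower) with arrays shifted to the hybridisation controls, where 4.52% of all genes were higher and 4.05% lower.

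The changes of core and regulatory particle are given side by side, and their difference was not tested. At 10 mg/kg the median log2 change was 0.77 in the 20S core and 0.71 in the 19S particle (0.51 and 0.43 after quantile normalization). At 1 mg/kg it was 0.41 in the core and 0.34 in the 19S particle (0.19 and 0.12), and at 0.1 mg/kg 0.03 and 0.02. Core minus 19S was 0.06 at 10 mg/kg and 0.07 at 1 mg/kg. Taken per liver on the deposited scale, core median minus 19S median averaged 1.52 ± 0.11 with vehicle and 1.56 ± 0.10 at 0.1 mg/kg (SD). It averaged 1.52 ± 0.10 at 1 and 1.58 ± 0.09 at 10 mg/kg. These means differed from vehicle by less than the SD of the vehicle livers. Per liver, the quantile-normalized median of the core averaged 9.39 ± 0.14 with vehicle, 9.42 ± 0.10 at 0.1, 9.43 ± 0.20 at 1 and 9.74 ± 0.19 at 10 mg/kg (SD, n = 10 each). That of the 19S particle averaged 7.87 ± 0.12 with vehicle, 7.89 ± 0.11 at 0.1, 7.89 ± 0.18 at 1 and 8.14 ± 0.21 at 10 mg/kg. Measured against the median gene of each array instead, the core stood at 5.34 ± 0.13 with vehicle, 5.42 ± 0.17 at 0.1, 5.32 ± 0.24 at 1 and 5.74 ± 0.17 at 10 mg/kg. On the quantile-normalized scale the core lay between 9.42 and 9.99 at 10 mg/kg and between 9.18 and 9.60 with vehicle, and against the median gene between 5.39 and 5.97 at 10 mg/kg and between 5.14 and 5.57 with vehicle. On both of these measures the 10 mg/kg group had the highest mean but overlapped with vehicle, and the livers at 1 mg/kg overlapped with vehicle widely.

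**Figure D3:**
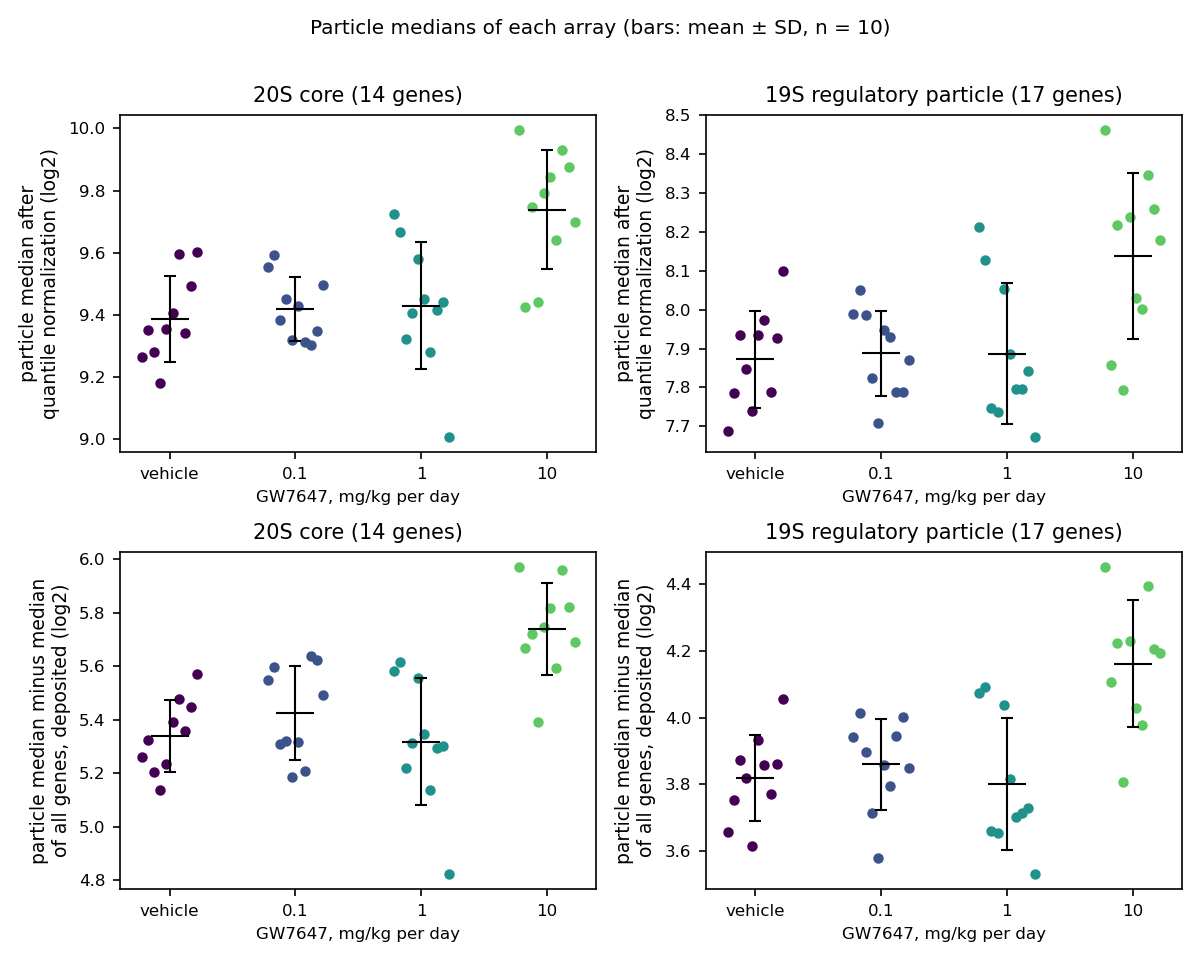
Median of the 14 genes of the 20S core and of the 17 genes of the 19S particle in each array, one point per rat, with group mean and SD (n = 10). The upper panels show quantile-normalized log2 values and the lower panels the deposited medians minus the median of all genes of the array. The 10 mg/kg group has the highest mean in each panel, 9.74 for the core in the upper left, and the groups overlap.

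Within dose groups, many but not all members also varied together from rat to rat, the core most. After subtraction of the group means, the median Pearson r over the 40 arrays was 0.36 among the 78 pairs of the core without Psmb10 (0.47 on the deposited scale) and 0.12 among the 136 pairs of the 19S particle (0.17). Psmb10 against the other 30 subunits had a median r of 0.01 (0.02). Members against all other genes had a median of 0.01 (0.02). Over all 861 pairs of members the quantile-normalized r had a median of 0.14 and ranged from -0.66 to 0.89, with 64.2% of pairs above 0. On that scale Psma3, Psmb5, Psmd2, Psmd7 and Psmd11 had negative medians with the core and 19S subunits (-0.08, -0.09, -0.09, -0.09 and -0.22). Psmd10, which fell at 10 mg/kg, had a median r of 0.29 (0.38) with the core and 19S subunits. These correlations describe arrays that share RNA and hybridisation quality, and they carry no test.

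The particle medians of single livers also went with the actin difference. As deviations from the group means of 40 arrays, the quantile-normalized core median and the actin difference had a Pearson r of -0.69 (permutation p = 1e-05, two-sided, the smallest that 100000 permutations can give) and a Spearman rho of -0.56 (permutation p = 2e-04). About their group means, the livers with the larger actin difference had the lower core signal. The group means themselves ran the other way, and both were highest at 10 mg/kg. Adjusted over the 2 particles, the p-values were 2e-05 and 4e-04. Without the 2 arrays farthest from the median of the actin difference, r was -0.59. Within groups r was 0.23 with vehicle, -0.64 at 0.1, -0.84 at 1 and -0.91 at 10 mg/kg. No negative relation was seen among the 10 vehicle livers, whose actin difference varied least (SD 0.24). Whether r differs between groups was not tested. For the 19S particle r was -0.57 and rho -0.50 (permutation p = 1e-04 and 0.001, and the same after adjustment), r was -0.55 without the same 2 arrays, and within groups it was 0.23 with vehicle, -0.51 at 0.1, -0.60 at 1 and -0.88 at 10 mg/kg. With the actin difference taken out of each gene, the median r among pairs was 0.33 in the core without Psmb10 and 0.16 in the 19S particle.

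**Figure D4:**
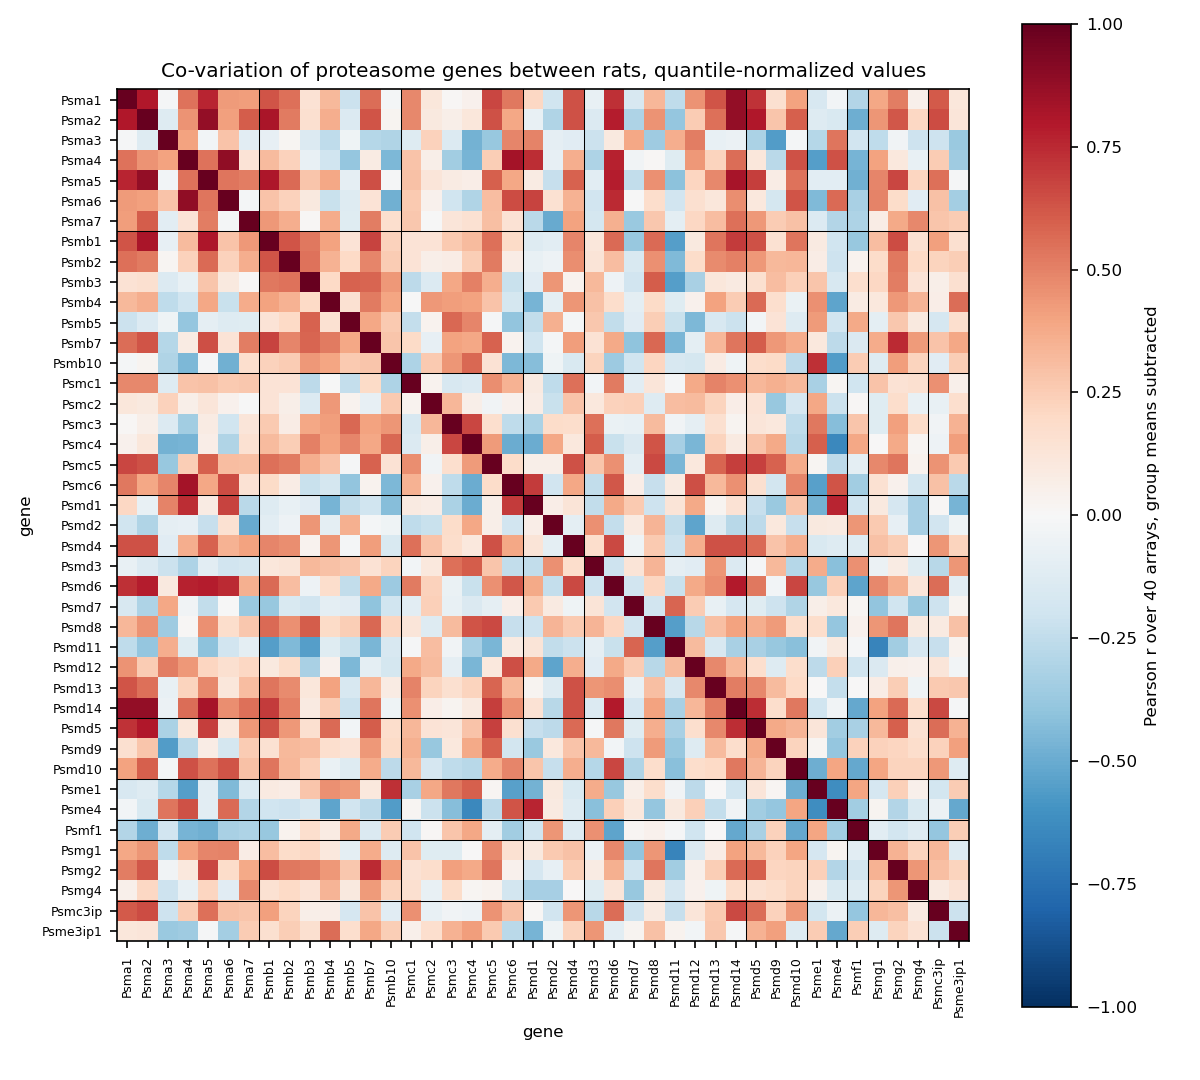
Pearson correlation between pairs of members over 40 arrays after subtraction of the group means, on quantile-normalized values, with red for positive and blue for negative. Lines separate the parts of the complex. The core genes form the reddest blocks (median r 0.36 without Psmb10), and the 19S block is paler (median r 0.12).

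Promoter sequences, 250 bases upstream of the annotated start, were at hand for 38 of the 42 members, from RefSeq on the rat assembly GRCr8. Short motifs of 4 kinds were searched on both strands. The core of the antioxidant response element, TGACNNNGC, which NFE2L1 and NFE2L2 bind with small MAF proteins, was found in 6 of 38 members (15.8%) and in 10.2% of all 27457 promoters. The core bound by ETS factors, CCGGAAG, was found in 12 members (31.6%) and in 7.74% of all promoters. The interferon-stimulated response element core, 2 copies of GAAA with 2 bases between them, was found in 4 members (10.5%) and in 3.29% of all promoters. The direct repeat that PPAR-alpha binds with RXR, 2 copies of AGGTCA with 1 base between them, was in none of the 38 and in 0.0546% of all promoters, and no match says only that these letters are not in this window. Each promoter printed holds matches of 1 of the motifs only, so that none overlap, and a match is a description and not a site of binding. Of the 38 members, 26 rose at 10 mg/kg. Among these 26, 8 held the ETS core, 4 the antioxidant response element core and 2 the interferon-stimulated response element core. Of the 4 members with the interferon-stimulated core, 2 rose and 1, Psmb10, fell. A link between motif and direction was not tested, and the promoters printed are not a sample that could show one. Shown are 3 members that rose and Psmb10, which fell, each 5′ to 3′ on the strand of the gene, with motif matches in capitals. Psmb7 (chr3:42827471-42827720, minus strand) holds CCGGAAG at 2 places, Psmb5 (chr15:32047380-32047629, minus strand) and Psmd1 (chr9:94157721-94157970, plus strand) hold TGACNNNGC once each, and Psmb10 (chr19:50743293-50743542, minus strand) holds the GAAA pair at 2 places.
Psmb7: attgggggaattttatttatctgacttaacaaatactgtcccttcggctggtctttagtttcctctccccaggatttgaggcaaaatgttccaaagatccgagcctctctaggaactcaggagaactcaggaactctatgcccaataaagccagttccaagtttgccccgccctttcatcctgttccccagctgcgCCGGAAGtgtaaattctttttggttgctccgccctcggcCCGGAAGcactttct
Psmb5: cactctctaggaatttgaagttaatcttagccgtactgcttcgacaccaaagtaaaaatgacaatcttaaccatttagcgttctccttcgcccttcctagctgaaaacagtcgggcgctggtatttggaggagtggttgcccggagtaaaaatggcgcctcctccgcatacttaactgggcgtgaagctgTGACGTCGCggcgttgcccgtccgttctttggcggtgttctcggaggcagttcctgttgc
Psmd1: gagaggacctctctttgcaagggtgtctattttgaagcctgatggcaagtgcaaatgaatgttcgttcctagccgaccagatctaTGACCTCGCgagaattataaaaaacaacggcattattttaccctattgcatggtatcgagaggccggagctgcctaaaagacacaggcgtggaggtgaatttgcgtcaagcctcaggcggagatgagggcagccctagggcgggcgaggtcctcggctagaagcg
Psmb10: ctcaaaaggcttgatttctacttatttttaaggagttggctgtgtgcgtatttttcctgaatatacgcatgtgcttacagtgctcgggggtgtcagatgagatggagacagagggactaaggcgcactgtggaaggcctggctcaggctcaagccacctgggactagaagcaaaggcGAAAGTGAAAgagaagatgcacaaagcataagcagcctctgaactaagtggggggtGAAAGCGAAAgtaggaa

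The other genes of the pathway were taken from fixed lists, read against the same background at 10 mg/kg (20.4% of all genes rose and 7.69% fell). Of 9 further subunits and assembly factors, 5 rose and 1, Psmb8, fell. The 5 were Adrm1, a ubiquitin receptor of the 19S base (log2 change 0.64), Ecpas, a proteasome scaffold (0.59), Usp14, a deubiquitinating enzyme (0.55), Txnl1, a thioredoxin-like protein of the 19S particle (0.52), and Pomp, which completes the 20S core (0.45). Adrm1 averaged 5.93 ± 0.19 at 10 mg/kg and 5.30 ± 0.16 with vehicle (SD, n = 10 each, adjusted p = 5.08e-08, quantile-normalized 0.34).

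Of 9 transcription factors of proteasome genes and proteins that process them, 3 rose and 1 fell at 10 mg/kg. Nfe2l1 averaged 5.74 ± 0.22 at 10 mg/kg and 4.24 ± 0.24 with vehicle (SD, n = 10 each), without overlap between the groups. It rose 2.82-fold (log2 change 1.49 ± 0.10, adjusted p = 8.68e-16, quantile-normalized 1.22), more than any member. At 1 mg/kg it averaged 5.10 ± 0.19 and rose 1.82-fold against vehicle (adjusted p = 1.17e-08, quantile-normalized 0.60). Ngly1, the deglycosylating enzyme that NFE2L1 needs, rose by 0.67 on the log2 scale and Keap1, the repressor of NFE2L2, by 0.59, while the small MAF gene Mafg, dim at 2.94 ± 0.33 at 10 mg/kg and 3.22 ± 0.21 with vehicle, fell by 0.29. Nfe2l2 itself had a change of 0.61 (adjusted p = 0.00236) on the deposited scale and 0.29 (adjusted p = 0.151) after quantile normalization. Of 11 target genes of NFE2L2, Gsta3 and Abcc3 rose (1.25 and 0.68), Gclc fell by 0.45, and 8, Nqo1 among them (-0.17, adjusted p = 0.632), did not pass.

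**Figure D5:**
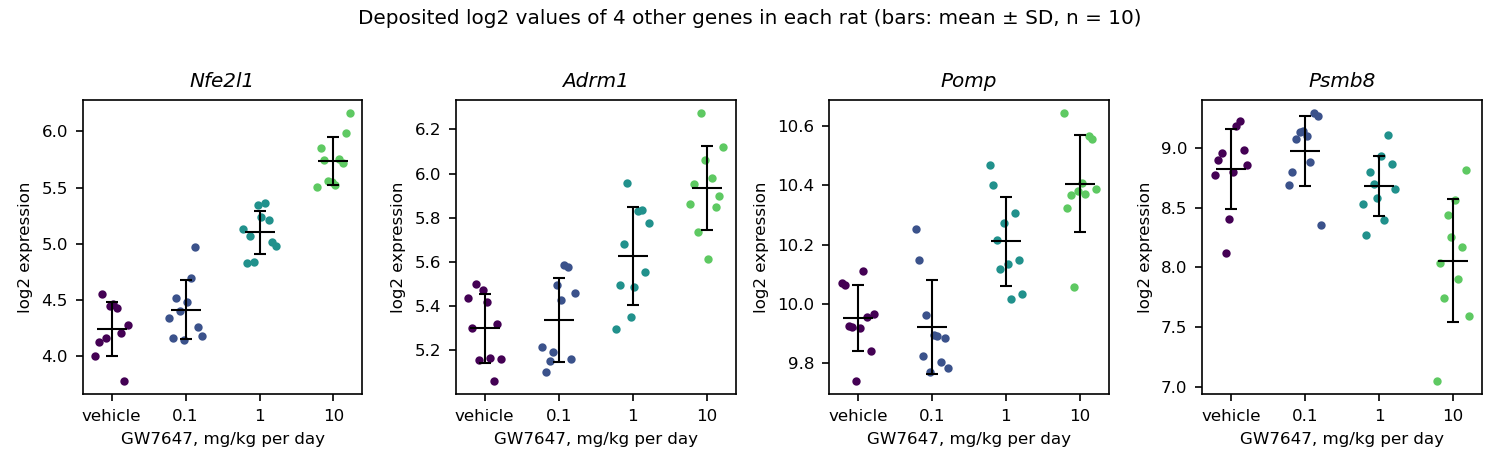
Deposited log2 values of Nfe2l1, Adrm1, Pomp and Psmb8, one point per rat, at vehicle and each GW7647 dose in mg/kg per day, with group mean and SD (n = 10). Nfe2l1 and Adrm1 at 10 mg/kg lie above all vehicle livers, Pomp overlaps slightly with vehicle, and Psmb8 is lowest at 10 mg/kg, with a mean of 8.06.

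Upstream and beside the proteasome, Uba1, the main ubiquitin-activating enzyme, rose by 0.68 on the log2 scale (adjusted p = 5e-06, quantile-normalized 0.36), 1 of 2 such enzymes measured. Of 10 shuttle factors and members of the VCP unfoldase system, which pulls ubiquitinated proteins out of complexes and membranes, 5 rose and none fell: Vcp (0.46) and its cofactors Ufd1 (0.63), Nsfl1c (0.62), Nploc4 (0.58) and Faf1 (0.51). The shuttle factor Rad23b had a change of -0.03 (adjusted p = 0.729). In the list of 10 interferon gamma and antigen processing genes, Tapbp, which loads peptides on MHC class I, rose by 0.89 while Psmb8 and Psmb10 fell. Of the COP9 signalosome, a complex related in structure to the lid, 2 of 9 genes rose, Cops5 (0.66) and Cops8 (0.48). Of the CCT chaperonin, a protein-folding complex unrelated to degradation, 3 of 8 rose, Cct6a (0.72), Cct8 (0.68) and Cct3 (0.62). No list was tested against other genes.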

How the data were processed

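Liver RNA of 40 rats was measured on 1 array per rat. The authors deposited log2 expression values for each probe set in a table of the whole series. They were made with Partek and GCRMA (per the submitters' processing notes; versions not given in the sources used here). Arrays give no depth, and the precision rests on their number and on the spread between rats. The annotation gave 1 gene symbol to 19063 of the 31139 probe sets, several to 572, which named no gene, and none to 11504. Symbols were updated through Entrez numbers, of which those of 18983 probe sets were matched in a RefSeq table of GRCr8. The brightest probe set over 40 arrays was taken per gene.

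One limma 3.58.1 model (R 4.3.3) of the 4 groups, with 36 residual degrees of freedom, was fitted to all 13438 genes, on the deposited values and again after quantile normalization across arrays. Its 5 contrasts were tested two-sided with Benjamini-Hochberg adjustment over all genes, and adjusted p-values in the text come from these fits. Replicates are separate rats per the labels. The scripts were tested on simulated data. Plots used Python 3.11.15 and matplotlib 3.10.9.

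Members, gene lists, motifs and the requirement of both scales were chosen with earlier results of these data known, and no list was tested. Values are given for the genes of each part of the complex with the largest rises, the largest fall and the smallest change at 10 mg/kg, and for each list for the up to 4 largest changes past the threshold. Genes named beyond this were chosen after their values were seen. Alternatives tried were each scale alone, shifts to a common median or to the hybridisation controls, fits of the compared groups only, a filter on dim genes, the mean of all probe sets, other priors and array weights, a replicate block, a poly-A covariate, an actin 3′ minus 5′ covariate added after seeing the data, and leaving out arrays.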

Additional observations from a re-analysis of the deposited data

Results flagged for a closer look

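Among the 23 members with values per liver, 92 groups of 10 livers were examined for a highest or lowest liver that stood apart from the others, and 10 had one. Chance flags about 1 in 20 groups. The livers flagged at 10 mg/kg were both on array 4, which was the highest for Psmf1 (9.43) and the lowest for Psmg4 (8.14). At 1 mg/kg, array 10 was the lowest for Psmb7 (7.61) and for Psmb3 (9.69), and it had the highest actin 3′ minus 5′ difference of the 40 arrays (4.42) and the lowest quantile-normalized core median of its group (9.01). At 0.1 mg/kg, array 1 was the highest for Psma1 (8.56) and Psmd1 (7.27), and array 8 was the highest for Psmb10 (7.68) and the lowest for Psmd10 (5.56) and Psme4 (5.99). With vehicle, array 1 was the highest for Psmd2 (8.85). All values are deposited log2 values.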

How the results depend on the processing

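The count at 10 mg/kg against vehicle, 31 of 42 members, lay between 30 and 37 under all alternatives that keep every array. It was 35 higher and 2 lower on the deposited values alone, and 29 higher and 4 lower after quantile normalization alone. At 1 mg/kg against vehicle, 13 became 31 on the deposited values alone, 24 with arrays shifted to one median and 6 with arrays shifted to the hybridisation controls. At 1 against 0.1 mg/kg, 8 became 33 on the deposited values alone, where 6107 of 13438 genes were higher and 397 lower. The count there was 18 with arrays shifted to one median, and 13 (11 higher, 2 lower) with the poly-A level as a covariate. At 10 against 1 mg/kg, 24 became 13 with arrays shifted to the hybridisation controls and 11 with arrays 1 to 4 alone at 1 mg/kg. The poly-A covariate gave 17 at 1 and 32 at 10 mg/kg against vehicle and 26 at 10 against 1 mg/kg, and the actin covariate 14, 31 and 27, and 9 at 1 against 0.1 mg/kg. For the shift to one median, and for covariates in the steps between doses, the share of all genes was not counted. At 0.1 mg/kg the count was 0 under every alternative. Leaving out 1 array at a time gave 0 to 0 at 0.1, 10 to 14 at 1 and 29 to 31 at 10 mg/kg against vehicle, 7 to 9 for 1 against 0.1 mg/kg and 22 to 26 for 10 against 1 mg/kg. Leaving out arrays 8 and 9 of the 0.1 mg/kg group, whose upper quartile was low, was chosen after seeing the data and gave 0, 14, 31, 8 and 25 for 0.1, 1 and 10 mg/kg against vehicle, 1 against 0.1 and 10 against 1 mg/kg.

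After quantile normalization the log2 change at 10 mg/kg turned below 0 for 7 members, none of which counted as changed: -0.010 for Psmd4, -0.034 for Psmd7, -0.06 for Psmd5, -0.17 for Psmc6, -0.27 for Psmd9, -0.23 for Psme4 and -0.23 for Psme3ip1. Over all genes, the change turned below 0 in this way for 4307 of 13438. The causes were not tested. The median change of the core minus that of the 19S particle was between -0.01 and 0.03 at 0.1, between 0.07 and 0.11 at 1 and between 0.02 and 0.12 at 10 mg/kg over the alternatives, and between -0.01 and 0.03, 0.04 and 0.09, and 0.03 and 0.09 when arrays were left out. The core median minus the 19S median of single vehicle livers had an SD of 0.11. Of 60 pairs of arrays with the same replicate number, 17 had deviations from the group means that correlated over 0.1 (range -0.27 to 0.37). Whether rats with the same number share some structure was not tested. With a replicate block, 0 members passed at 0.1, 13 at 1 and 31 at 10 mg/kg against vehicle, 8 at 1 against 0.1 mg/kg and 24 at 10 against 1 mg/kg, and 10 of 40 arrays correlated best with their own number. Dim members near the floor of the values, such as Psmc3ip, limit what a fold can show.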
